A study of Mus musculus with 24 samples.

Results

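The comparison described here is between the Tcf7 cKO and WT labels in CD8+ T cells after 8 h of activation in culture. Its members are the 6 libraries whose titles give 8 h, 3 of cKO mice (mice 1, 2 and 3) and 3 of WT mice (mice 4, 5 and 6), out of 24 libraries in the series. Both groups were OT-I T cells, which carry 1 transgenic T cell receptor, from mice with floxed Tcf7 alleles (Tcf7FL/FL). The cKO mice also carried E8i-cre, a recombinase transgene driven by an enhancer of the Cd8 locus, and the WT mice did not (E8i-cre-). Effects of the transgene itself and of the deletion therefore cannot be told apart. Cells came from spleen and lymph nodes and were enriched with CD8 microbeads, and the age of the animals is not given in the sources used here. Culture plates carried anti-CD3 and anti-CD28 antibodies (1 ug/mL in the coating), and the medium held IL2 (6 ng/mL). Each library was made by Smart-seq2 from 1000 sorted cells, and every mouse also gave libraries at 0, 4 and 24 h, which enter the fit and are used below only to place the difference at 8 h. In such bulk samples, fewer cells that express a gene and less RNA per cell cannot be told apart.

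TCF1, the product of Tcf7, is an HMG-box transcription factor that binds DNA, as does its relative LEF1, and that works with Groucho corepressors. In naive and memory CD8+ T cells it is known for keeping up stem-like programmes and for holding effector genes back. Activation through the T cell receptor and CD28 lowers Tcf7 RNA while granzymes, cytokines and the machinery of growth are switched on.

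The 6 libraries held 5846265 to 8319352 expected counts each, 15094 to 16178 genes with a count, and 14.2 to 17.2% of counts in the ribosomal RNA gene Rn45s. Defining RNAs of CD8 T cells were abundant, and the 7 measured markers (among them Cd8a, Cd8b1, Cd3e and Lck) summed to 1912 to 2158 TPM in cKO and 1638 to 1860 TPM in WT, without overlap. TPM is a share of all transcripts in a library, scaled for gene length. Among B cell markers, Pax5 was at 0 in all 6 libraries, and the summed level was 3.28 to 6.66 TPM in cKO and 1.35 to 3.09 in WT, mostly Cd79b. Of 9 myeloid markers, Lyz2, S100a8 and S100a9 were at 0, and the sums were 1.29 to 4.89 and 1.29 to 3.77 TPM. The 7 markers of natural killer and innate-like T cells summed to 0.78 to 1.74 and 0.95 to 3.04 TPM. The 5 CD4 and regulatory T cell markers summed to 19.5 to 25.6 and 19.8 to 35.1 TPM, mostly Cd40lg, with Cd4 at 0.27 TPM or less. The 10 dendritic cell markers summed to 207 to 224 and 186 to 196 TPM, mostly Bst2, with H2-Aa at 0. The 6 erythroid and platelet markers reached at most 1.24 TPM, and the 6 stromal and endothelial markers summed to 11.8 to 19.2 and 11.4 to 18.7 TPM, nearly all of it Pecam1. None of these other cell type markers was called different between the genotypes, and the part of the B cell, dendritic cell and CD8 sums, each without overlap on the cKO side, in the results below was not tested.

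The 8 h libraries were not all equally far along the time course. On a line from the mean of the 4 h libraries (position 0) to the mean of the 24 h libraries (position 1), cKO mice 1, 2 and 3 lay at 0.221, 0.303 and 0.219, and WT mice 4, 5 and 6 at 0.243, 0.307 and 0.261. Mice 2 and 5 were farthest along, 1 of each genotype. The cKO mean (0.248) was below the WT mean (0.270) by an amount smaller than the SD within either group (0.0481 and 0.0330, exact two-sided permutation test, p = 0.5, where 3 against 3 cannot go below 0.1). A fit of the 6 libraries of 8 h alone kept 9 of the 21 calls below, and the same fit with that position as a covariate kept 11. Results are given below also without the 8 h libraries of mice 2 and 5 where that ended a call.

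Tcf7 RNA itself, the targeted gene, was at 127, 73.6 and 108 TPM in the libraries labelled cKO and at 87.4, 52.6 and 81.3 TPM in WT. The 2 ranges overlap, and in each genotype the library that was farthest along in time (mouse 2 or mouse 5) was the lowest. The log2 difference of cKO over WT was 0.43 (SE 0.123, edgeR adjusted p = 0.184). It was called higher without a filter on low counts and without mouse 2, and its adjusted p was 0.00200 to 0.806 over the 16 alternatives. The files give 1 transcript for Tcf7 (length 2238 in every library), so neither the count nor the length separates the deleted part from the rest of the RNA, and neither checks the deletion. Groups are named here by their labels.

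Of 11470 genes tested, 21 (0.183%) were called at an adjusted p under 0.05 by edgeR's quasi-likelihood test with Benjamini-Hochberg adjustment. There were 17 genes higher in cKO (0.148% of those tested) and 4 lower (0.0349%). Of the 21, 17 reached a mean of 10 TPM in the higher group. The libraries of the 2 groups did not overlap in TMM-scaled CPM (counts scaled to library size) for any of the 21, against 1207 such genes (10.5%) among all tested, 609 higher (5.31%) and 598 lower (5.21%). The 21 were selected on these same libraries, so their lack of overlap adds no support to the calls. An unadjusted p under 0.05 was reached by 1139 genes (9.93%), 561 higher (4.89%) and 578 lower (5.04%). The median log2 difference of all tested genes was −0.03. The called genes leaned to the cKO side although only 45.1% of tested genes had a positive value.

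**Figure D1:**
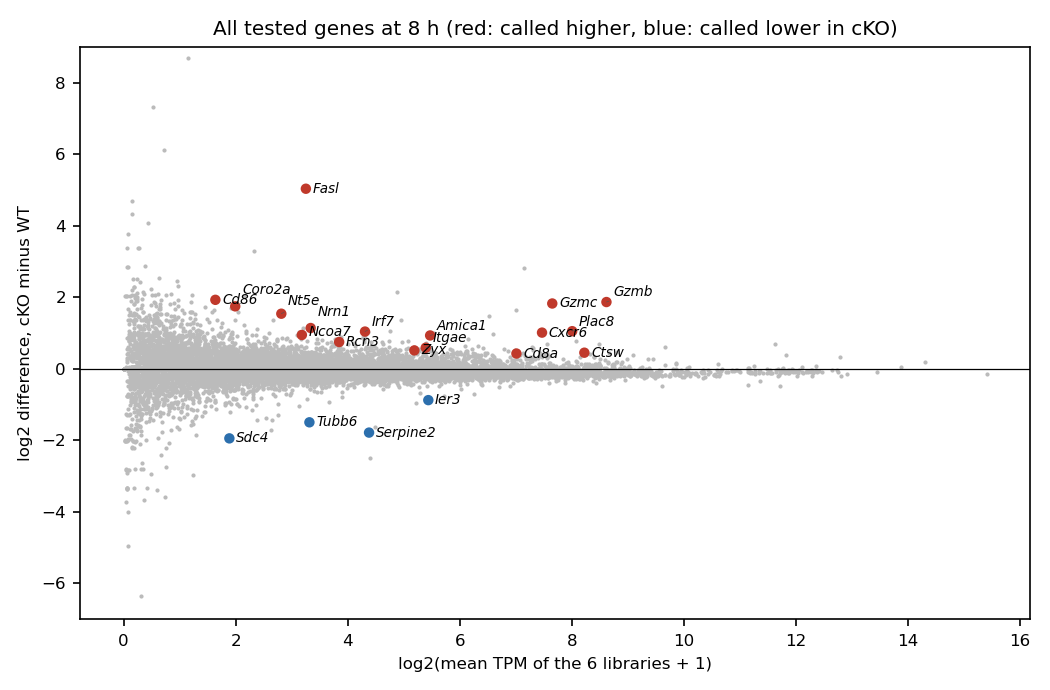
Log2 difference (cKO minus WT, vertical axis) against mean level (log2 of the mean TPM of the 6 libraries plus 1, horizontal axis) for the 11470 genes tested at 8 h, each a grey point. The 17 genes called higher (red) and the 4 called lower (blue) are named; Fasl stands highest among them at 5.04, and the widest grey scatter is among genes of low level.

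Among effector genes, Fasl, Gzmb, Gzmc and Ctsw were called higher in cKO. Fasl had the largest log2 difference of the 21 called genes, and that of Ctsw was among the smaller ones. Fasl, the ligand that triggers death through the receptor Fas, measured 18.6, 15.9 and 15.4 TPM in the cKO libraries (mice 1, 2 and 3) against 0.16, 0.64 and 0.54 TPM in the WT libraries (mice 4, 5 and 6). These levels rest on 149, 135 and 106 counts in cKO and on 1, 6 and 5 counts in WT, so the groups lie far apart and the WT level is near the detection limit. The fitted log2 difference was 5.04 (SE 0.346, edgeR adjusted p = 1.28e-12), a 32.8-fold difference. Gzmb, a granule serine protease that cleaves after aspartate and starts apoptosis in target cells, was at 548, 739 and 578 TPM in cKO against 156, 186 and 148 TPM in WT, means of 622 ± 103 and 163 ± 20.1 (SD, n = 3). The lowest cKO library lay well above the highest WT library, and the fitted difference was 3.65-fold (log2 1.87, SE 0.171, edgeR adjusted p = 5.28e-06). Gzmc, a neighbouring granzyme gene, was at 294, 383 and 266 TPM in cKO against 103, 93.1 and 62.5 in WT, a 3.55-fold difference (log2 1.83, SE 0.182, edgeR adjusted p = 4.03e-06). Mouse 2 had the highest level of both granzymes among cKO mice. Ctsw, a cathepsin restricted largely to cytotoxic lymphocytes, was at 385, 323 and 344 TPM in cKO against 238, 243 and 256 in WT, a 1.37-fold difference (log2 0.45, SE 0.098, edgeR adjusted p = 0.0316).

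The effector and cytotoxic list held 18 genes, of which 13 passed the filter on low counts. These 4 were its called members, all higher and none lower, where 0.148% of all tested genes were called higher and 0.0349% lower. The list's median log2 difference was 0.33 (−0.03 for all tested genes), and 9 of the 13 were positive (45.1% of all genes). The list was written with earlier results of these data known. Members that were abundant without being called included Nkg7, a granule membrane protein, at 1463 to 1796 TPM in cKO and 1398 to 1562 in WT. The proteoglycan serglycin (Srgn), which packs granule proteins, was at 1402, 1585 and 1546 TPM in cKO against 1656, 1764 and 1590 in WT (log2 −0.21, edgeR adjusted p = 0.476). Perforin (Prf1), the pore former that lets granzymes in, was at 93.9, 82.4 and 59.6 TPM against 54.1, 56.1 and 56.0 (log2 0.45, SE 0.192, edgeR adjusted p = 0.44), with mouse 1 highest. Other granzymes hardly appeared: Gzma was at 0.75 TPM or less in every library, and Gzmd, Gzme, Gzmf and Gzmk, which did not pass the filter, at 0.41 TPM or less. Without mouse 1, 2, 4, 5 or 6, Ctsw lost its call (edgeR adjusted p up to 0.202), while Fasl, Gzmb and Gzmc kept theirs under all 16 alternatives.

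On GRCm38, Fasl lies on chromosome 1 from 161780689 to 161788495, and Gzmb (56258838 to 56262260) and Gzmc (56231441 to 56234656) lie beside each other on chromosome 14. Cxcr6 lies on chromosome 9 from 123806475 to 123811760. Fasl, Gzmb and Gzmc, together with Cxcr6 below, were called under every alternative tried, and the DNA at their starts is shown for that reason. Each line is the 250 bases before and 50 after the RefSeq start on GRCm38.p6, 5′ to 3′ on the strand of the gene: chr14:56262285-56262584 (minus strand) for Gzmb, chr14:56234608-56234907 (minus) for Gzmc, chr9:123806227-123806526 (plus) for Cxcr6 and chr1:161788446-161788745 (minus) for Fasl. Capitals mark CTTTGA, a form of the core that TCF1 and LEF1 bind, and TGTGGT, the core that RUNX factors bind, on either strand. ACCACA is the latter read on the opposite strand. Other forms of the TCF core were not searched and are not marked.
Gzmb: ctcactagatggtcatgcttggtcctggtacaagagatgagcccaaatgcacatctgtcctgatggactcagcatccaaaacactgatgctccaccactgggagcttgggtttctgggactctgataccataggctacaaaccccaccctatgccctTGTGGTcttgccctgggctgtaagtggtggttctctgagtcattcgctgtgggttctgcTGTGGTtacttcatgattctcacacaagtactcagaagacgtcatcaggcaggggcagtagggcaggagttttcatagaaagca
Gzmc: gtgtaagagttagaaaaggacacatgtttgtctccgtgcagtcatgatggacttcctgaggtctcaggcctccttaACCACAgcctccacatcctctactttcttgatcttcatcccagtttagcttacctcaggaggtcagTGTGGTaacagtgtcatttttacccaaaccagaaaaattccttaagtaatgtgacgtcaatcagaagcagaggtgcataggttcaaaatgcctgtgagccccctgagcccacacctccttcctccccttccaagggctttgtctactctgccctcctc
Cxcr6: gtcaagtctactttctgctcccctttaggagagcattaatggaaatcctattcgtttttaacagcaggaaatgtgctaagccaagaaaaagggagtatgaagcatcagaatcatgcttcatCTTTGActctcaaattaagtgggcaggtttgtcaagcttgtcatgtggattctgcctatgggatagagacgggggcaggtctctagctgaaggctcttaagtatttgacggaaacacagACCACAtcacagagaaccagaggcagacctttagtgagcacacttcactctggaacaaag
Fasl: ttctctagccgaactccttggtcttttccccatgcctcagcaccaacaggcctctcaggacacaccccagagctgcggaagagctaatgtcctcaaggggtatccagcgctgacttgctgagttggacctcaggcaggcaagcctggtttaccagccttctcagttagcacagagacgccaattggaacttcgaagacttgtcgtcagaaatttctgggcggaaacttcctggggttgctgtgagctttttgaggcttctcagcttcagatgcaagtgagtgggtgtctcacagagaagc
The RUNX core begins 93 and 34 bases before the start of Gzmb, 174 and 108 bases before that of Gzmc and 10 bases before that of Cxcr6. CTTTGA begins 129 bases before the start of Cxcr6 and is not in the windows of Gzmb, Gzmc or Fasl. The window of Fasl holds neither CTTTGA nor TGTGGT. No match of CTTTGA overlaps a match of TGTGGT in these windows. Of 27025 gene symbols with such a window, 18.2% have CTTTGA in it and 18.9% TGTGGT, on either strand. Of the 21 called genes, 16 had a window, and 4 of these hold CTTTGA (Cxcr6, Amica1, Coro2a and Ncoa7) and 6 hold TGTGGT (Gzmb, Gzmc, Cxcr6, Amica1, Coro2a and Plac8). Such matches describe letters and do not show that a factor is bound.

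**Figure D2:**
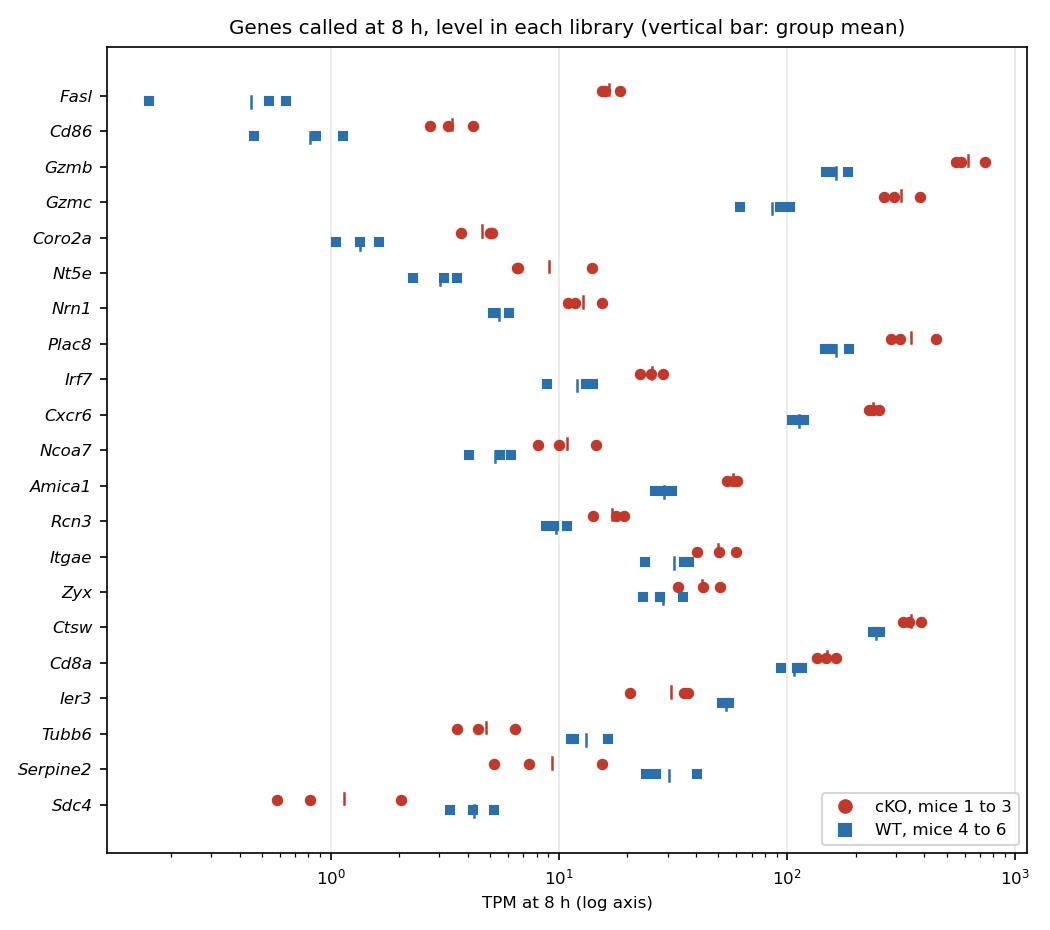
TPM (horizontal log axis) of the 21 genes called at 8 h in each cKO library (red circles, mice 1 to 3) and each WT library (blue squares, mice 4 to 6), with group means as short vertical bars, ordered by log2 difference. Gzmb lies at 548 to 739 TPM in cKO and 148 to 186 in WT, and among the 21 genes only Zyx has TPM ranges that overlap.

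Surface receptors made up the next group of higher genes. Cxcr6, the receptor for CXCL16 that the title of the series names, was at 252, 238 and 228 TPM in cKO against 105, 119 and 115 in WT. The 2 groups were each tight (239 ± 11.9 and 113 ± 7.07 TPM, SD, n = 3), and the difference was 2.02-fold (log2 1.01, SE 0.127, edgeR adjusted p = 3.06e-05). Amica1 (the gene also named Jaml), a junctional adhesion molecule that costimulates T cells, was at 58.2, 60.6 and 54.8 TPM in cKO against 26.3, 31.2 and 29.2 in WT, a 1.91-fold difference (log2 0.93, SE 0.131, edgeR adjusted p = 6.44e-05). Cd86, a ligand of CD28 and CTLA4 better known on antigen-presenting cells, was low in all libraries, at 4.21, 3.27 and 2.74 TPM in cKO against 0.46, 0.86 and 1.13 in WT (log2 1.93, SE 0.403, edgeR adjusted p = 0.0274). Beside it, the summed B cell markers and the summed dendritic cell markers (207 to 224 against 186 to 196 TPM, mostly Bst2) were also without overlap on the cKO side, and their part in the level of Cd86 was not tested. Nt5e, the ectoenzyme CD73 that makes adenosine from AMP, was at 14.0, 6.54 and 6.66 TPM in cKO against 3.14, 2.31 and 3.57 in WT, with mouse 1 standing above the other cKO mice (log2 1.54, SE 0.307, edgeR adjusted p = 0.0309). Itgae, the integrin alpha chain CD103 that binds E-cadherin, was at 59.5, 40.2 and 50.3 TPM in cKO against 35.4, 23.8 and 37.1 in WT (log2 0.59, SE 0.124, edgeR adjusted p = 0.0309).

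Cd8a, the alpha chain of the CD8 coreceptor, was at 164, 148 and 135 TPM in cKO against 117, 94.4 and 110 in WT, a 1.34-fold difference (log2 0.43, SE 0.085, edgeR adjusted p = 0.0139). The cre of the cKO mice is driven by an enhancer of the Cd8 locus, and its part in the level of Cd8a was not tested. Cd8b1, the beta chain, was at 438, 335 and 388 TPM in cKO against 352, 307 and 332 in WT and was not called (log2 0.17, edgeR adjusted p = 0.482). Cd3g, a signalling chain of the receptor complex, was at 341, 311 and 306 TPM against 272, 224 and 247 (log2 0.32, edgeR adjusted p = 0.107). Over the 22 genes of the receptor complex and its proximal kinases the median log2 difference was −0.00314 (−0.03 for all tested genes). Cd8a was the single called member, where 0.148% of all tested genes were called higher.

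Of these receptors only Cxcr6 and Amica1 kept their calls under every alternative. Cd86 lost its call without mouse 1, 4, 5 or 6 (edgeR adjusted p up to 0.189), Nt5e without mouse 1, 5 or 6 (up to 0.256), Itgae without mouse 1, 3 or 5 (up to 0.388) and Cd8a without mouse 1, 2, 5 or 6 (up to 0.202). In limma with mouse as a random block, which changes both the test and the block, Cd86 and Nt5e were not called (adjusted p = 0.0695 and 0.0998). The correlation of libraries of a mouse in that fit was −7.03e-05. Without the 8 h libraries of mice 2 and 5, none of Cd86, Nt5e, Itgae and Cd8a was called (edgeR adjusted p = 0.159, 0.151, 0.0715 and 0.172).

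Genes inside the cell were also called higher. Coro2a, an actin-binding coronin that is also part of nuclear corepressor complexes, was at 5.11, 4.99 and 3.73 TPM in cKO against 1.63, 1.06 and 1.35 in WT, a 3.36-fold difference at low levels (log2 1.75, SE 0.255, edgeR adjusted p = 9.62e-05). Plac8, a small cysteine-rich protein linked to effector and memory lymphocytes, was at 451, 312 and 286 TPM in cKO against 186, 146 and 158 in WT (2.07-fold, log2 1.05, SE 0.173, edgeR adjusted p = 0.00786). Mouse 1 had the most. Irf7, the interferon regulatory factor that amplifies type I interferon responses, was at 28.7, 22.7 and 25.4 TPM in cKO against 14.2, 8.88 and 13.1 in WT (2.06-fold, log2 1.04, SE 0.214, edgeR adjusted p = 0.0369). Ncoa7, a nuclear receptor coactivator with an interferon-inducible form, was at 14.6, 8.12 and 10.1 TPM in cKO against 6.15, 4.06 and 5.51 in WT (log2 0.95, SE 0.209, edgeR adjusted p = 0.0369). Zyx, zyxin of focal adhesions and actin fibres, was at 51.0, 33.2 and 42.7 TPM in cKO against 35.2, 23.3 and 27.7 in WT. In TPM the ranges of Zyx overlap, since cKO mouse 2 lies below WT mouse 4, and the difference was 1.43-fold (log2 0.51, SE 0.110, edgeR adjusted p = 0.0309).

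Nrn1, neuritin, a membrane-anchored protein described in anergic and regulatory T cells as well as neurons, was at 15.5, 11.0 and 11.8 TPM in cKO against 5.28, 6.04 and 5.16 in WT (2.20-fold, log2 1.14, SE 0.246, edgeR adjusted p = 0.0309). Rcn3, a calcium-binding protein of the secretory pathway, was at 19.3, 17.9 and 14.1 TPM in cKO against 8.77, 9.52 and 10.8 in WT (1.68-fold, log2 0.75, SE 0.170, edgeR adjusted p = 0.0469), and it was the called gene nearest to the threshold. Of these 7 genes Coro2a kept its call under all 16 alternatives. Plac8 and Irf7 lost theirs without mouse 4, 5 or 6 (edgeR adjusted p up to 0.143 and 0.456), Ncoa7 and Nrn1 without mouse 1, 4, 5 or 6 (up to 0.405 and 0.212), Zyx without mouse 1, 3, 5 or 6 (up to 0.379) and Rcn3 without any one mouse but mouse 3 (up to 0.268). In the same limma fit, Ncoa7 and Rcn3 were not called (adjusted p = 0.112 and 0.168). Without the 8 h libraries of mice 2 and 5, Plac8, Irf7, Ncoa7, Nrn1 and Rcn3 were not called (edgeR adjusted p = 0.137, 0.260, 0.129, 0.0585 and 0.260).

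The 4 genes called lower in cKO are a surface proteoglycan, an early response gene, a tubulin and a protease inhibitor, and in all 4 the groups lay apart. Sdc4, syndecan-4, a heparan sulphate proteoglycan of the cell surface, was at 0.58, 2.04 and 0.81 TPM in cKO against 3.33, 4.22 and 5.22 in WT, 3.85-fold lower (log2 −1.95, SE 0.357, edgeR adjusted p = 0.00523). Ier3, an immediate early gene that affects survival after stress, was at 35.5, 20.6 and 36.9 TPM in cKO against 51.7, 55.5 and 54.2 in WT, 1.84-fold lower (log2 −0.88, SE 0.161, edgeR adjusted p = 0.00523). Tubb6, a beta tubulin that is a minor isotype in lymphocytes, was at 4.45, 6.43 and 3.58 TPM in cKO against 11.7, 16.4 and 11.3 in WT, 2.82-fold lower (log2 −1.50, SE 0.283, edgeR adjusted p = 0.00775). Serpine2, a secreted inhibitor of serine proteases such as thrombin, was at 15.5, 5.18 and 7.38 TPM in cKO against 24.0, 40.1 and 26.8 in WT, 3.44-fold lower (log2 −1.78, SE 0.336, edgeR adjusted p = 0.0309). In WT the mean level of each of the 4 was higher at 8 h than at 0 h: Serpine2 went from 0.55 to 30.3 TPM, Ier3 from 4.66 to 53.8, Tubb6 from 2.27 to 13.1 and Sdc4 from 0.74 to 4.26. Of all tested genes, 56.7% had a lower WT mean at 8 h than at 0 h. The WT means at 4 h were above those at 8 h for Ier3 (162 TPM) and Sdc4 (6.21), and below them for Serpine2 (6.37) and Tubb6 (5.25). None of the 4 kept its call under every alternative. Sdc4 and Tubb6 lost theirs without mouse 1, 3, 5 or 6 (edgeR adjusted p up to 0.0896 and 0.118), Ier3 without mouse 2, 5 or 6 (up to 0.118) and Serpine2 without mouse 2, 3 or 6 (up to 0.197). When the 8 h libraries of mice 2 and 5 were left out, Ier3, Tubb6 and Serpine2 were not called (0.260, 0.0527 and 0.221, edgeR adjusted p). In the fit of the 6 libraries alone Sdc4, Ier3 and Serpine2 were not called (edgeR adjusted p = 0.105, 0.133 and 0.577), and Tubb6 was (0.0457). With position on the time line added to that fit, Sdc4 and Serpine2 were not called (edgeR adjusted p = 0.0678 and 0.800). The log2 difference of Serpine2 was −1.74 without and −1.75 with that position. Without the 8 h libraries of mice 2 and 5 its log2 difference was −1.16. That of Sdc4 was −2.75 without mouse 2, the cKO mouse with the highest level.

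Beside Cxcr6, the series title names CD28. Cd28 was at 21.5, 23.9 and 25.4 TPM in cKO against 27.8, 11.6 and 23.7 in WT, where mouse 5 was lowest. The log2 difference was 0.14 (SE 0.180, edgeR adjusted p = 0.806), and without mouse 5 it was −0.11 (adjusted p = 0.955). Lef1, the relative of Tcf7, was at 120, 80.1 and 105 TPM in cKO against 94.4, 77.4 and 97.4 in WT (log2 0.17, SE 0.105, edgeR adjusted p = 0.593). Of 11 tested genes of this group, which includes the CD28 family and its ligands, Cxcr6 and Cd86 were called. The median log2 difference was 0.14 (−0.03 for all tested genes, of which 0.148% were called higher). Pdcd1, the receptor PD-1, was at 149 to 174 TPM in cKO and 172 to 211 in WT (log2 −0.29, edgeR adjusted p = 0.579). The naive and stem-like list had 0 of 22 members called and a median of 0.11. Its members with the smallest p besides Tcf7 were Myb, a stemness factor at 0.82, 0.26 and 0.96 TPM in cKO against 2.11, 2.02 and 1.60 in WT (log2 −1.57, edgeR adjusted p = 0.0991), and Eomes, a T-box factor at 5.65, 4.28 and 4.18 against 1.78, 1.80 and 0.93 (log2 1.59, edgeR adjusted p = 0.199). The growth factor binding protein Igfbp4 was at 22.4, 14.4 and 12.8 TPM against 12.3, 8.20 and 10.6 (log2 0.64, edgeR adjusted p = 0.25).

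Just below the threshold, 10 further genes at 10 TPM or more followed in order of p and did not pass (edgeR adjusted p from 0.0632 to 0.0802). Snx9, a sorting nexin of endocytosis, was at 34.6, 41.3 and 40.6 TPM in cKO against 24.7, 22.9 and 18.8 in WT (log2 0.76, SE 0.181). Furin, the protease that matures many secreted proteins, was at 27.8, 26.7 and 25.5 TPM against 17.0, 17.5 and 20.1 (log2 0.49, SE 0.118). Pim2, a survival kinase induced by cytokines, was at 219, 186 and 226 TPM against 170, 139 and 153 (log2 0.39, SE 0.096). The GTPase Rac2 (log2 0.33), the Rab regulator Dennd5a (0.56), the phox-domain kinase-like gene Pxk (0.60) and the acyltransferase Agpat3 (0.50) were the others with a positive value. Prelid2 was at 60.5, 61.1 and 54.2 TPM in cKO against 101, 88.6 and 88.3 in WT (log2 −0.71, SE 0.176). Cdc20, an activator of the anaphase-promoting complex (log2 −0.84), and Eea1, an early endosome tether (−0.45), also had negative values. Each of the 10 was called under 2 to 7 of the 16 alternatives, Snx9 and Furin under 7.

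Gene groups are described by counts, to be set beside those of all tested genes, of which 45.1% were positive, 5.31% higher and 5.21% lower without overlap, and 0.148% called higher. The list with the highest median was that of memory-phenotype and Ly6 genes (0.60, against −0.03 for all genes), where 12 of 15 tested members were positive (45.1% of all genes) and 7 were higher without overlap (5.31% of all genes). Plac8 was its called member. Ly6c2, a surface protein of memory-phenotype CD8+ T cells, was at 421, 176 and 146 TPM in cKO against 28.3, 35.4 and 35.8 in WT. The groups lie far apart, yet mouse 1 alone holds more than the other cKO mice together, and the gene was not called (log2 2.82, SE 0.638, edgeR adjusted p = 0.0991). The chemokine Ccl5, at 225, 95.4 and 87.2 TPM against 52.1, 59.8 and 29.4, had the same order with mouse 1 highest (log2 1.47, SE 0.462, edgeR adjusted p = 0.271). Il18rap, a subunit of the IL-18 receptor, was at 2.39, 1.54 and 0.90 TPM against 0.47, 0.24 and 0.25 (log2 2.32, edgeR adjusted p = 0.0842). Cxcr3, a receptor of effector and memory cells, went the other way, at 38.5, 18.9 and 19.2 TPM against 37.2, 57.1 and 45.8 (log2 −0.95, edgeR adjusted p = 0.448).

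Interferon-stimulated genes had a median log2 difference of 0.41. Of 37 tested members 34 were positive (45.1% of all genes) and 8 were higher without overlap (5.31% of all genes), and 1, Irf7, was called (0.148% of all genes were called higher). Usp18, the protease that removes ISG15, was at 12.6, 4.39 and 6.24 TPM in cKO against 3.03, 1.95 and 3.66 in WT (log2 1.37, SE 0.382, edgeR adjusted p = 0.184). Stat2 was at 12.3, 8.30 and 13.7 TPM against 8.20, 7.53 and 7.80 (log2 0.47, edgeR adjusted p = 0.333). The antiviral gene Rsad2 was low, at 1.54, 0.82 and 0.43 TPM against 0.30, 0.10 and 0.32 (log2 1.92, edgeR adjusted p = 0.25). Library by library, as the median deviation of the members from the mean of the 6 libraries, the list stood at 0.48 in mouse 1, 0.03 in mouse 2 and 0.01 in mouse 3, and at −0.10, −0.22 and −0.08 in mice 4, 5 and 6. Without mouse 1 the median log2 difference was 0.18. Mouse 1 thus stood apart from the other cKO mice in this list, and Irf7 kept its call without that mouse.

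The list of interleukin-2 receptor and cytokine signalling genes had a small median that was even among mice. Of its 24 members, 20 were positive (45.1% of all genes), 8 were higher without overlap (5.31% of all genes) and 0 were called, with a median of 0.16. The library medians were 0.05, 0.08 and 0.07 in cKO mice and −0.11, −0.12 and −0.05 in WT mice. Il2rb, the shared beta chain of the interleukin-2 and interleukin-15 receptors, was at 134, 132 and 137 TPM in cKO against 116, 96.2 and 113 in WT (log2 0.25, SE 0.087, edgeR adjusted p = 0.275). Il4ra was at 63.0, 56.1 and 60.5 TPM against 51.6, 47.1 and 49.0 (log2 0.22, edgeR adjusted p = 0.32). Socs2, a feedback inhibitor, was near the detection limit, at 0.46, 1.09 and 1.35 TPM against 0.14, 0 and 0.30 (edgeR adjusted p = 0.199). Pim2, a target of this pathway, is given above.

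Inhibitory receptors and related genes had a median of 0.37 over 13 tested members, with 6 higher and 1 lower without overlap (5.31% and 5.21% of all genes). Nt5e was its single called member. For this list and those that follow, 0.148% of all tested genes were called higher and 0.0349% lower. Tox, a nuclear factor of exhausted T cells, was at 22.4, 18.9 and 21.6 TPM in cKO against 16.6, 13.5 and 15.3 in WT (log2 0.41, SE 0.114, edgeR adjusted p = 0.135). Lag3 was at 70.9, 98.2 and 70.2 TPM against 66.8, 57.7 and 55.7 (log2 0.37, edgeR adjusted p = 0.364), and Cd200 was at 177, 226 and 223 TPM against 272, 268 and 247 (log2 −0.39, edgeR adjusted p = 0.344). Without mouse 2 the median of the list was 0.19. Secreted chemokines had a median of 0.26 over 8 tested members and 0 called. Ccl1 was at 280, 180 and 131 TPM in cKO against 27.4, 88.8 and 58.6 in WT (log2 1.63, edgeR adjusted p = 0.287), and Ccl3 and Ccl4 were at 7605 to 8425 and 21089 to 22545 TPM in cKO and 5494 to 6862 and 16775 to 20813 in WT. Among effector fate factors, 0 of 18 were called. Runx1, a RUNX factor, was at 1.97, 1.55 and 1.68 TPM against 4.44, 2.68 and 2.98 (log2 −0.95, edgeR adjusted p = 0.0802), and the T-box factor Tbx21 at 77.4, 90.6 and 98.9 TPM against 75.6, 64.7 and 35.5 (log2 0.55, edgeR adjusted p = 0.569). The Wnt target and feedback list had 0 of 10 tested members called and a median of 0.24, with 7 positive (45.1% of all genes). Without overlap, 2 were higher and 1 lower. Without the 8 h libraries of mice 2 and 5 its median was 0.06. The member with the smallest p, Rnf43, was at 1.46, 1.07 and 1.01 TPM in cKO against 0.46, 0.45 and 0.56 in WT (log2 1.18, edgeR adjusted p = 0.32). Its best known target Axin2 was at 0.45 to 0.88 TPM in cKO and 0.81 to 1.01 in WT.

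**Figure D3:**
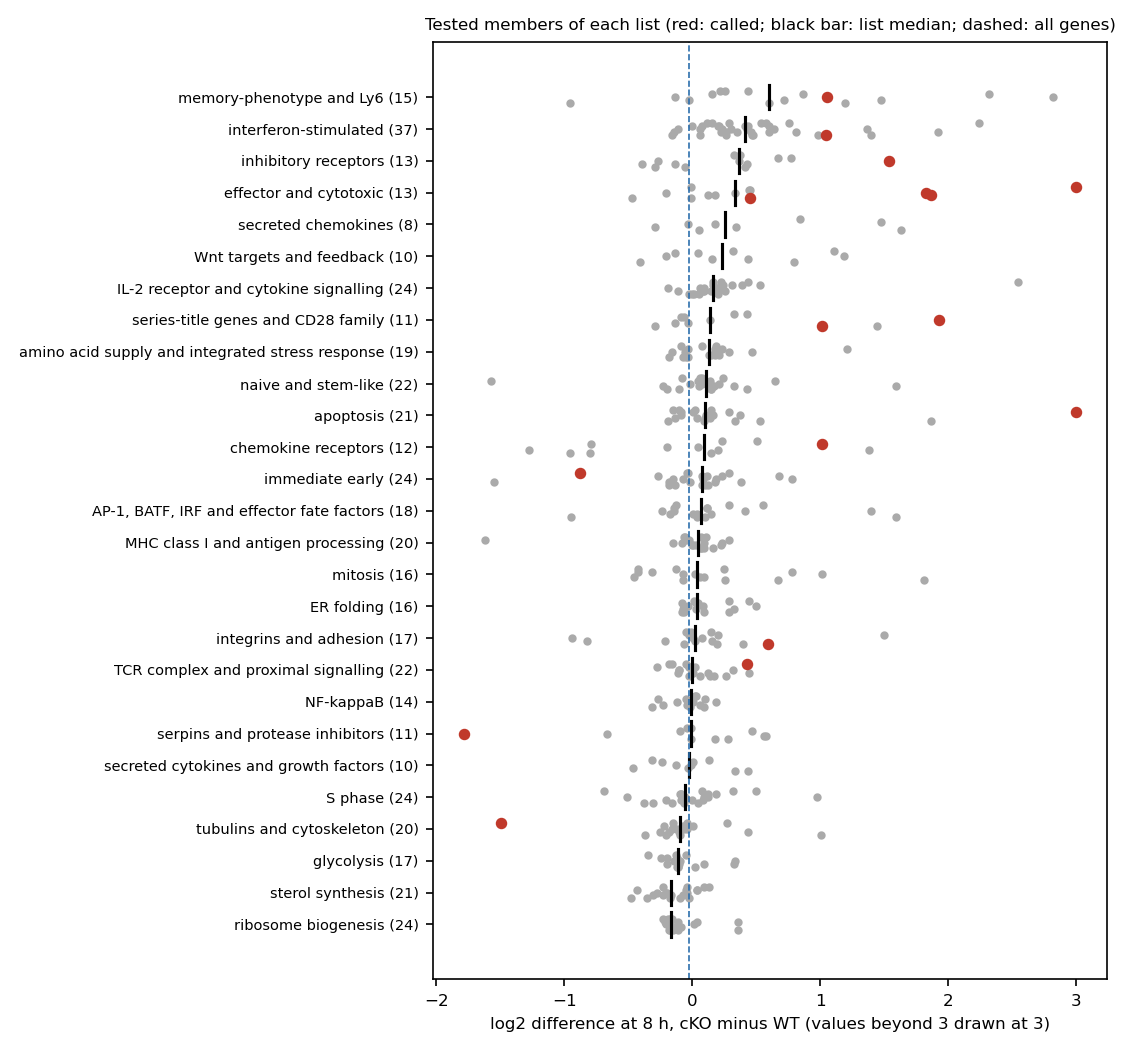
Log2 difference at 8 h (cKO minus WT, horizontal axis, values beyond 3 drawn at 3) of the tested members of 27 gene lists, the number tested in brackets; red points are called genes, black bars list medians and the dashed line the median of all tested genes. Medians run from 0.60 for memory-phenotype and Ly6 genes to −0.17 for ribosome biogenesis, and red points are few in every list.

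Of the lists of growth and metabolism, ribosome biogenesis, sterol synthesis, glycolysis and tubulins had negative medians, while amino acid supply (0.13) and ER folding (0.04) had positive ones. Of all 11470 tested genes, 6284 were negative, 5.21% were lower without overlap and 0.0349% were called lower, with a median of −0.03. Ribosome biogenesis genes had a median of −0.17 with 20 of 24 negative, none without overlap and 0 called. Nucleolin (Ncl) was at 574, 635 and 607 TPM in cKO against 626, 665 and 686 in WT (log2 −0.18, SE 0.080, edgeR adjusted p = 0.431), and Pes1, a factor of the large ribosomal subunit, at 188, 187 and 189 TPM against 199, 220 and 212 (log2 −0.23, edgeR adjusted p = 0.382). Fbl, fibrillarin, and Rrs1 had the largest positive values among the 24 (each 0.36). Sterol synthesis genes had a median of −0.16, with 17 of 21 negative, 4 lower without overlap and 0 called. Idi1, an isomerase of the isoprenoid pathway, was at 122, 96.6 and 85.3 TPM against 149, 132 and 126 (log2 −0.48, SE 0.141, edgeR adjusted p = 0.217), and squalene synthase, Fdft1, at 14.6, 14.6 and 12.6 TPM against 19.4, 17.8 and 17.3 (log2 −0.43, edgeR adjusted p = 0.268). In glycolysis (median −0.11, 13 of 17 negative), Ldha, lactate dehydrogenase A, was at 2329, 2608 and 2214 TPM against 2943, 2989 and 2792 (log2 −0.34, SE 0.091, edgeR adjusted p = 0.117). Tubulin and cytoskeleton genes had a median of −0.10, with 16 of 20 negative and Tubb6 called. The other beta tubulin Tubb4b was at 529, 591 and 544 TPM against 614, 613 and 555 (log2 −0.16, edgeR adjusted p = 0.586), so the called member is one of low level. Vimentin (Vim) was positive in this list, at 89.3, 56.2 and 40.4 TPM against 30.2, 31.7 and 27.3, with mouse 1 highest (log2 1.01, edgeR adjusted p = 0.222).

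The library medians of these lists also varied between mice of a genotype. Ribosome biogenesis stood at −0.17, 0.08 and −0.13 in cKO mice 1, 2 and 3 and at −0.10, 0.24 and 0.10 in WT mice 4, 5 and 6, so that mice 2 and 5, which lay farthest along in time, were the highest of their genotype. In glycolysis mice 2 and 5 were likewise the highest of their genotype, at 0.13 and 0.20. Without the 8 h libraries of mice 2 and 5 the medians were −0.16 for ribosome biogenesis, −0.16 for sterol synthesis and −0.11 for glycolysis. These medians were close to those with all libraries, and the genotypes overlapped in the library medians of all 3 lists. In sterol synthesis mice 1 and 6 were the highest of their genotype, at −0.00272 and 0.14.

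**Figure D4:**
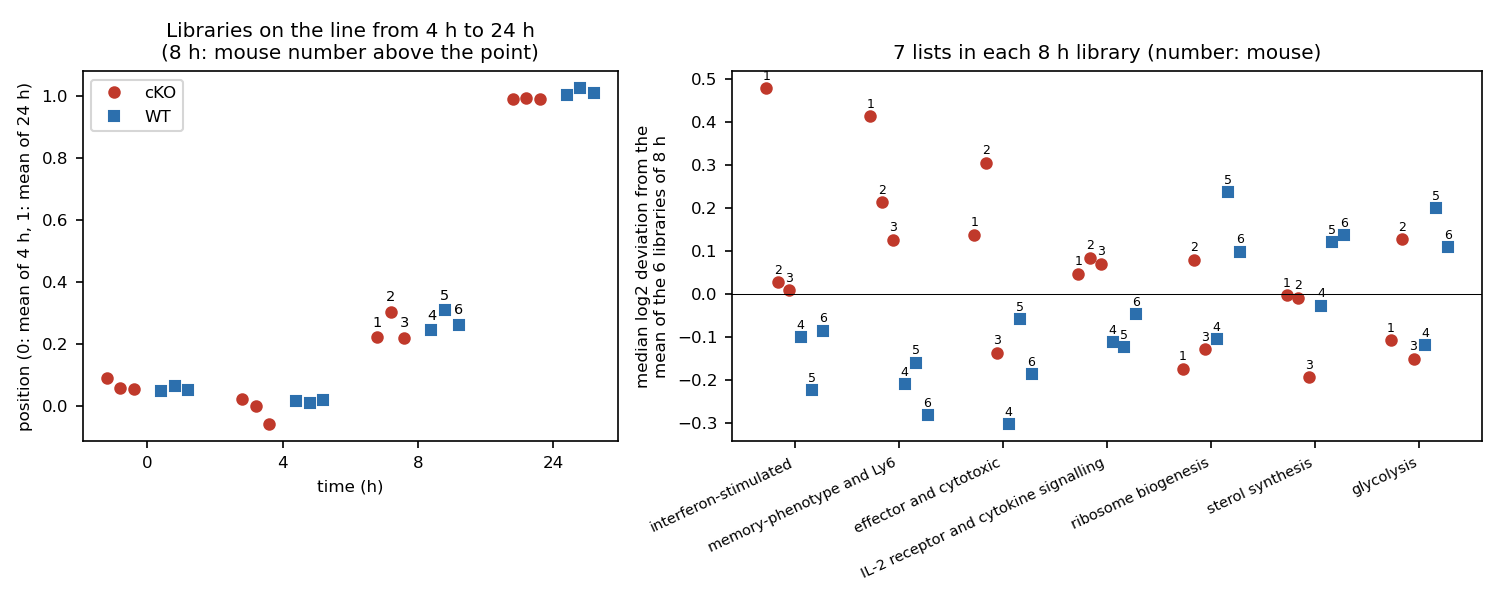
Left, position of all 24 libraries on the line from the mean of 4 h (0) to the mean of 24 h (1), by time in h, for cKO (red circles) and WT (blue squares), with the mouse number above each 8 h point. Right, median log2 deviation of 7 lists in each 8 h library from the mean of the 6 libraries. Mouse 1 stands apart at 0.48 in the interferon-stimulated list. Both that list and the signalling list separate the genotypes, the signalling list in a narrow range. They are not the only lists to do so. Library medians of memory-phenotype and Ly6 genes, inhibitory receptors and effector fate factors, among others, separated the genotypes too.

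The same 6 mice gave libraries at the other times, at which 51 (0.445%), 94 (0.82%) and 12 (0.105%) genes were called at 0, 4 and 24 h. Of the 17 genes higher at 8 h, 7 were also called higher at 0 h (0.314% of tested genes were), 13 at 4 h (0.436%) and 6 at 24 h (0.0959%). Of the 4 lower genes, 0 were called lower at 0 h (0.131%), 2 at 4 h (0.384%) and 0 at 24 h (0.00872%). Fasl, Cxcr6 and Coro2a were called at all 4 times. Tubb6, Cd8a, Serpine2, Zyx, Nrn1 and Irf7 were called at 8 h only, though none of them was shown to differ between 8 h and another time in the tests below. In WT, 12 of the 17 higher genes were at a lower mean level at 8 h than at 0 h (56.7% of all tested genes were), and the other 5, among them Fasl, Gzmb, Gzmc and Nrn1, at a higher one. For Cxcr6, WT was at 104 TPM at 0 h, 70.8 at 4 h and 113 at 8 h, and cKO at 396, 261 and 239. Gzmb was at 0.46 TPM at 0 h and 163 at 8 h in WT, with 1.44 and 622 in cKO, and its log2 difference was 1.67 (SE 0.736) at 0 h, where both groups were near 0, 1.77 at 4 h, 1.87 at 8 h and 1.52 at 24 h. Itgae had log2 differences of 0.74, 0.86, 0.59 and 0.70 at 0, 4, 8 and 24 h.

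**Figure D5:**
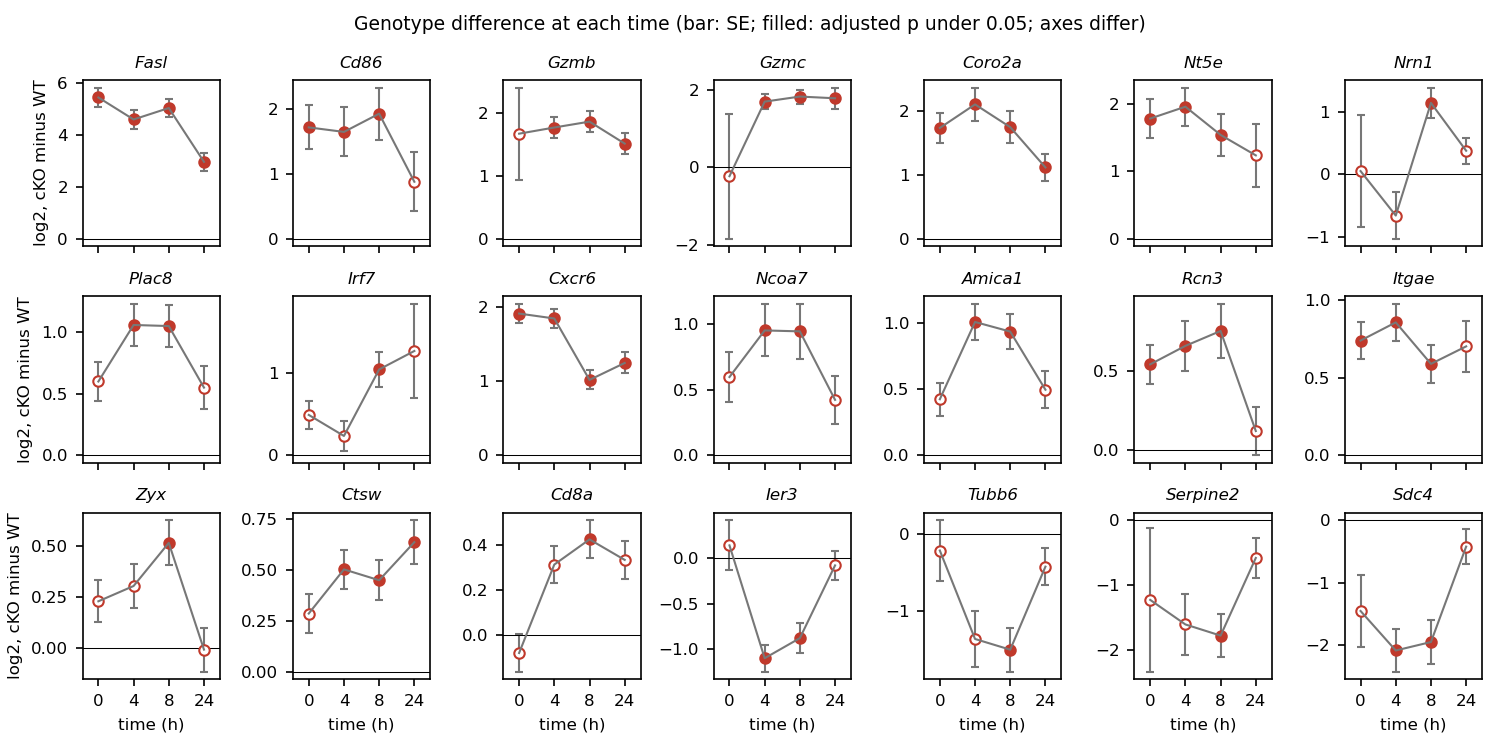
Log2 difference (cKO minus WT) of the 21 genes called at 8 h at 0, 4, 8 and 24 h, each panel with its own vertical axis; bars are SE and filled points have an adjusted p under 0.05. Fasl, Cxcr6 and Coro2a are filled at all 4 times, and the lower genes Sdc4, Ier3 and Tubb6 lie nearest to 0 at 0 h or 24 h.

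Whether the genotype difference at 8 h was another one than at the other times was tested as an interaction. None of the 21 called genes passed any of the 3 interactions. For Cxcr6 the change of the log2 difference was −0.89 from 0 h to 8 h (SE 0.178, edgeR adjusted p = 0.101) and −0.83 from 4 h to 8 h (edgeR adjusted p = 0.0919). Against 0 h, 1 gene passed (0.00872% of those tested, with 912, or 7.95%, at an unadjusted p under 0.05): Dennd5a. It was at 9.76, 8.05 and 8.20 TPM in cKO against 1.21, 0.99 and 2.74 in WT at 0 h, and at 33.6, 31.0 and 35.8 against 24.6, 21.0 and 20.0 at 8 h. A wide log2 difference at rest had thus narrowed (change −1.82, SE 0.236, edgeR adjusted p = 0.000113). The gap in TPM had not, with means of 8.67 against 1.65 at 0 h and 33.5 against 21.9 at 8 h. None of the 14 alternatives ended this call (highest edgeR adjusted p 0.0329). Against 24 h, 1 gene passed (0.00872%, with 510, or 4.45%, at an unadjusted p under 0.05), Tcf7 itself, whose log2 difference was −0.90 at 24 h and 0.43 at 8 h (interaction 1.33, SE 0.176, edgeR adjusted p = 0.00032). Without mouse 3 it was not called (adjusted p = 0.356), in 1 of 14 alternatives.

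Against 4 h, 7 genes passed (0.061%, with 976, or 8.51%, at an unadjusted p under 0.05), all with a positive change: Hgsnat, Irak1bp1, Deaf1, Fbl, Tgif2, Vars and Fance. Their fitted differences were negative at 4 h and positive at 8 h. Vars, the valyl-tRNA synthetase, was at 61.4, 50.4 and 45.7 TPM in cKO against 55.4, 71.9 and 72.1 in WT at 4 h, and at 97.3, 97.8 and 104 against 94.1, 64.9 and 61.6 at 8 h. WT mouse 4 thus lay close to the cKO mice at both times, and WT mice 5 and 6 lay above them at 4 h and below them at 8 h. Tgif2, a homeobox repressor, had the same layout in WT, with 29.6, 33.6 and 38.3 TPM in mice 4, 5 and 6 at 4 h, then 31.0, 19.7 and 20.5 at 8 h. Hgsnat, a lysosomal acetyltransferase, was at 5.88, 12.4 and 11.5 TPM in these WT mice at 4 h and 9.89, 6.39 and 5.66 at 8 h, against 4.68 to 6.28 and 11.0 to 13.6 in cKO. All 7 calls were lost without mouse 2, 3, 5 or 6 (edgeR adjusted p up to 0.732), and the count was 43 genes without mouse 1 and 184 without mouse 4. With mouse as a fixed block Fance and Fbl were not called (edgeR adjusted p = 0.0794 and 0.109) and the other 5 were. Whether WT mouse 4 or WT mice 5 and 6 stand for their genotype was not tested.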

How the data were processed

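Libraries were made by Smart-seq2, which adds no molecular identifiers, so reads are not independent molecules and detection limits reflect counting alone. STAR, RSEM, DESeq2 and the mm10 build were used, per the submitters' processing notes. Versions: not given in the sources used here. The authors deposited RSEM expected counts and TPM per gene. Here expected counts were rounded and tested with edgeR 4.0.16 (R 4.3.3): TMM scaling, its default low-count filter with the 8 groups as design (11470 of 23420 genes kept), a robust quasi-likelihood fit of all 24 libraries with 1 mean per group, and Benjamini-Hochberg adjustment over all tested genes with a threshold of 0.05. SE is the log2 difference over the square root of F. TPM served for levels only. Overlap of groups was judged on TMM-scaled CPM. limma 3.58.1 and DESeq2 1.42.0 were alternatives, and the procedure was tested on simulated data. Libraries of a mouse at different times come from 1 animal by the labels. Same-mouse deviations correlated at −0.0846 to 0.163, above 0.1 in 3 of 18 pairs. Since cKO mice are 1 to 3 and WT mice 4 to 6, mouse entered as a random block for the 8 h difference and as a fixed block for interactions. Named genes were all called genes, Tcf7, Lef1 and Cd28, the next 10 by p at 10 TPM or more, up to 6 genes per direction in each interaction (Fance, beyond that number against 4 h, was added after its values were seen), and the members of each list with the smallest p, while further list members were chosen after their values were seen. The members and lists were chosen with earlier results of these data known. Positions are from GENCODE on GRCm38 and promoters from RefSeq (GRCm38.p6). The value of 1 marker gene is not reported here.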

Additional observations from a re-analysis of the deposited data

Results flagged for a closer look

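For 9 genes the genotype difference at 8 h differed from that at another time by the interaction test in edgeR's quasi-likelihood fit. Against 0 h this was Dennd5a (log2 −1.82, adjusted p = 0.000113). Against 24 h it was Tcf7 (log2 1.33, adjusted p = 0.00032). Against 4 h they were Hgsnat (1.65, adjusted p = 0.0181), Irak1bp1 (2.89, adjusted p = 0.0181), Deaf1 (1.18), Fbl (0.88), Tgif2 (1.00) and Vars (0.78, each adjusted p = 0.0268), and Fance (1.86, adjusted p = 0.0384). At 4 h Irak1bp1 measured 1.02, 0.37 and 0.46 TPM in cKO against 2.02, 2.26 and 2.83 in WT, and at 8 h 3.99, 3.28 and 4.03 against 2.09, 2.30 and 1.21. Fbl measured 95.8, 86.4 and 90.0 TPM against 107, 122 and 151 at 4 h and 186, 213 and 230 against 215, 139 and 125 at 8 h.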

How the results depend on the processing

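Of the 21 genes called at 8 h, 6 kept their call in all 16 alternatives (Fasl, Gzmc, Gzmb, Cxcr6, Amica1 and Coro2a), 15 lost it in at least 1, and 0 changed sign. The count was 58 with DESeq2, 135 with no filter on low counts, 33 with at least 5 CPM in at least 3 libraries, 32 with limma on log2(TPM + 1), 13 without the 8 h libraries of mice 2 and 5, and 7 to 66 with each mouse left out. In limma with mouse as a random replicate block it was 24, of which 17 were among the 21. The correlation within a mouse was −7.03e-05 there, and the test changed with the block, so these moves cannot be put down to the block. The 6 libraries of 8 h alone gave 14, of which 9 were among the 21. Against 0 h the count of 1 became 18 with DESeq2, 34 with no filter, 2 with limma on TPM, 2 with the replicate block, and 1 to 4 without a mouse. Against 4 h the count of 7 became 95, 163, 4 at 5 CPM, 4 with Rn45s removed, 1 with limma on TPM, 1 without the 8 h libraries of mice 2 and 5, 6 with the replicate block, and 0 to 184 without a mouse. It was 0 in edgeR without mouse 2, 3, 5 or 6, where 882, 765, 946 and 634 genes had an unadjusted p under 0.05. Against 24 h the count of 1 became 2 with no filter, 2 with limma on TPM, 1 with the replicate block and 0 to 1 without a mouse (0 without mouse 3, where 444 genes had an unadjusted p under 0.05). The log2 difference of Cd28 reversed to −0.11 without mouse 5 and −0.16 without the 8 h libraries of mice 2 and 5, and its highest value was 0.31, without mouse 4. On log2(TPM + 1), which shrinks low levels, the differences of Fasl, Sdc4 and Cd86 were 3.62, −1.34 and 1.28. The causes were not tested. With 3 mice a group and 1000 cells a library, genes under about 1 TPM rest on few counts.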
